A study of Mus musculus with 15 samples.

Results

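CD45, the receptor-type tyrosine phosphatase encoded by Ptprc, was examined together with the genes of its splicing repressors hnRNP L (Hnrnpl) and hnRNP LL (Hnrnpll), 3 of 55450 annotated genes with 33 of 141767 transcripts. They were chosen by name, from their textbook roles, with earlier results of these data already known. Their symbols were looked up in the GENCODE M21 annotation of the mouse genome (mm10). Donor cells were CD8+ T cells of OT-I mice, transgenic for a T cell receptor that recognises the ovalbumin peptide SIINFEKL, on a recombination-deficient Rag1-/- or Rag2-/- C57BL/6J background carrying the CD45.1 allele. They were transferred into C57BL/6J recipients, which carry CD45.2 and a full immune system of their own. Recipients then received the peptide with rat IgG (Ag) or with agonist antibodies against OX40 (CD134) and 4-1BB (CD137) (Ag+Costim). Transferred cells were sorted from spleen and lymph nodes as CD8+ CD45.1+ Vα2+ Vβ5+, so an allele of CD45 itself was part of the gate. The labels give day 4 for this sort and the methods give a shorter time. Mice of both sexes were used, and nothing ties a library to 1 animal or to a pool. Estimated counts of 5 Ag and 5 Ag+Costim libraries were compared, each named by its group and replicate number (Ag 1 to Ag 5). Naive libraries, the remaining group of the series, were not analysed here.

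CD45 removes an inhibitory phosphate from the kinases Lck and Fyn and so sets the threshold of T cell receptor signalling. Exons 4, 5 and 6 of its gene, also called A, B and C, encode a heavily O-glycosylated stretch outside the cell and can each be skipped. Resting T cells keep some of these exons, B cells keep all of them (the B220 form), and activated and memory T cells skip most of them to make the short form RO. hnRNP L and its paralog hnRNP LL are RNA-binding proteins that prefer runs of CA repeats, sit on silencer elements within these exons and repress their inclusion, and hnRNP LL is known as a factor induced when T cells are activated. Both repressor genes also hold an exon that, when included, marks their own transcript for nonsense-mediated decay.

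The 3 variable exons are shown because the comparison turns on them. Ptprc (ENSMUSG00000026395.16) lies at chr1:138062861-138175708 on the minus strand, and the exons are numbered as in its 33-exon transcript Ptprc-207. Exon 4 lies at chr1:138122456-138122584 (129 bases), exon 5 at chr1:138120020-138120166 (147 bases) and exon 6 at chr1:138117754-138117894 (141 bases). Each is coding, each length is a multiple of 3, and skipping all of them removes 417 bases without a shift of the reading frame. The sequences are given 5′ to 3′ as transcribed, from the GENCODE M21 transcripts, with each run of ACACA or CACAC in capitals.
Ptprc exon 4 (A): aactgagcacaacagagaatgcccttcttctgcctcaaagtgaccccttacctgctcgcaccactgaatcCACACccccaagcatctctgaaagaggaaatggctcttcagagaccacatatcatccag
Ptprc exon 5 (B): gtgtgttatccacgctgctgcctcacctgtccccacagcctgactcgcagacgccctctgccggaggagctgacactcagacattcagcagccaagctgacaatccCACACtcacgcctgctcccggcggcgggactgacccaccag
Ptprc exon 6 (C): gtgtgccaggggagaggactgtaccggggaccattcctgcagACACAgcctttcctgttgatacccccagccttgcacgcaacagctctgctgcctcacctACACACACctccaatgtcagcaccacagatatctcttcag
All 3 exons held ACACA or CACAC on the transcribed strand (the only strand searched, and the motifs overlap each other), whereas 20.5% of the 4794 annotated cassette exons of 120 to 150 bases did and 48.2% of them held the shorter CACA. Codons for serine, threonine or proline made up 47.6% of the whole codons of exon 4, 45.8% of exon 5 and 47.8% of exon 6. They made up 19.0% in the rest of the coding sequence of Ptprc-207. The shorter neighbouring exons 3, 7 and 8 held more, at 71.4%, 60.9% and 57.1%, so the trait is not particular to the variable exons. Hnrnpl (ENSMUSG00000015165.16) lies at chr7:28808541-28822266 on the plus strand with 13 transcripts, and Hnrnpll (ENSMUSG00000024095.15) at chr17:80029487-80062334 on the minus strand with 7. The coding sequences of Hnrnpl-201 and Hnrnpll-205 hold 586 and 591 codons and encode 56.8% identical residues over 555 aligned positions. Hnrnpl-209, also typed as coding, took a larger mean share of counts than Hnrnpl-201 (51.4% against 36.0% in Ag, 53.7% against 31.6% in Ag+Costim). It has 12 exons where Hnrnpl-201 has 13, and its coding sequence was not compared.

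The libraries were not alike within Ag. Estimated counts, which StringTie derives from coverage and which are not numbers of reads, totalled 59.6 M (mega) in Ag 3, 259.5 to 449.3 M in the other Ag libraries and 332.2 to 639.0 M in Ag+Costim. Genes with a count numbered 21740 in Ag 2 and 20674 in Ag 5, against 40363 to 51694 in Ag 1, 3 and 4 and 28671 to 30283 in Ag+Costim. Some activation state genes also differed, though not all of those listed below did so alike. Gzmb, the effector protease granzyme B, stood at 8.27 and 16.7 CPM (counts scaled to a common library total with edgeR's TMM factors) in Ag 1 and Ag 4 and at 348.4 to 729.9 CPM in the other Ag libraries, against 244.7 to 675.7 CPM in Ag+Costim. The main levels and exon values are therefore also given without pairs of these libraries. As no source says whether libraries came from separate animals, p-values measure only the spread between these libraries.

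To ask how much of each gene was present, levels were compared between the groups. Per transcript length the order was the same in every library: Ptprc lay between 390.8 and 839.3 TPM (counts scaled for transcript length and library total), Hnrnpl between 137.2 and 307.4 TPM and Hnrnpll between 32.9 and 72.2 TPM. Ptprc was thus abundant in both groups. The 5 Ag libraries held 1369, 1581, 1192, 1586 and 1196 CPM of Ptprc. The 5 Ag+Costim libraries held 1719, 1682, 1729, 1518 and 1728 CPM. Most Ag+Costim libraries were above every Ag library, but Ag+Costim 4 lay below Ag 2 and Ag 4, so that the groups overlapped. The log2 fold change of Ptprc was 0.27 (SE 0.15), with a BH-adjusted p of 0.306 in edgeR. Its sign turned when libraries were scaled by total counts (-0.013, adjusted p 0.959 in edgeR). In bulk RNA, fewer cells of a type and less RNA per cell cannot be told apart.

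Hnrnpl was the member whose groups did not overlap under any of the scalings used. Its level was 141.6, 239.9, 223.3, 160.8 and 240.2 CPM in Ag 1 to 5. In Ag+Costim 1 to 5 it was 355.3, 368.9, 343.4, 435.2 and 367.2 CPM. No Ag library reached the lowest Ag+Costim library, in CPM with either scaling and in TPM. The means were 201.2 ± 46.6 and 374.0 ± 35.7 CPM (SD, n = 5 each), a log2 fold change of 0.89 (SE 0.18). With 24225 genes tested, the adjusted p was 0.141 in edgeR (unadjusted p 4.68e-04), so Hnrnpl did not pass, and neither did any other gene: edgeR called 0 (0%) at a BH-adjusted p under 0.05. At an unadjusted p under 0.05 edgeR had 4493 genes, of which 7.89% of all genes tested were higher in Ag+Costim and 10.7% lower, while DESeq2 called 8011 genes and limma's voom with a quality weight per library 12639. Groups that did not overlap were found for 4.47% of genes in the higher direction and 1.13% in the lower with TMM factors, 2.9% and 1.78% with total counts, and 4.94% and 1.14% in TPM. DESeq2 called Hnrnpl higher (log2 fold change 0.78, adjusted p 5.71e-05), a call that 2.56% of the genes it tested shared.

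Hnrnpll, the repressor linked to activation, also stood higher in the Ag+Costim libraries, with a wide spread in Ag. Its level was 44.1, 104.2, 81.7, 63.2 and 119.1 CPM in Ag 1 to 5. In Ag+Costim 1 to 5 it was 118.7, 120.4, 130.7, 142.4 and 139.1 CPM. Ag 5 lay just above the lowest Ag+Costim library, and the lowest Ag libraries were Ag 1 and Ag 4, in which Gzmb was lowest. Scaled by total counts (61.5 to 98.6 against 110.6 to 126.8 CPM) and in TPM (32.9 to 50.2 against 61.9 to 72.2) the groups of Hnrnpll did not overlap, as in the 2.9% and 4.94% of genes given above. The log2 fold change was 0.66 (SE 0.24), with an adjusted p of 0.247 in edgeR and 0.0512 in DESeq2. The ratio of Hnrnpl to Hnrnpll in TPM was 3.65 ± 0.70 in Ag and 4.07 ± 0.29 with Ag+Costim (SD, n = 5 each), with overlapping groups.

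**Figure D1:**
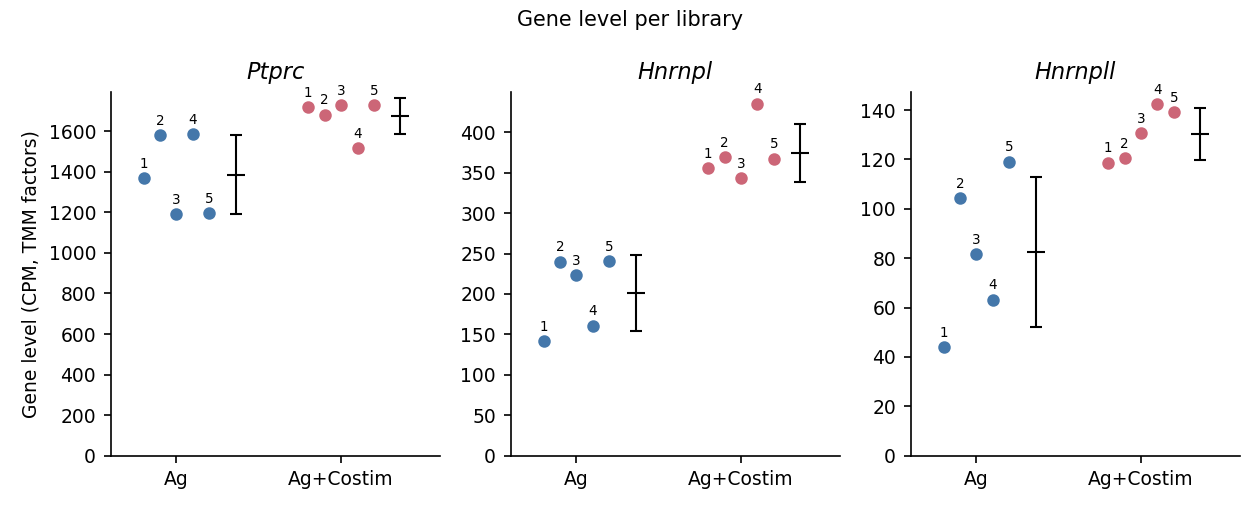
Level of Ptprc, Hnrnpl and Hnrnpll in each library (CPM with TMM factors, linear axis from 0). Points are libraries with their replicate number, and the bars are the group mean and SD (n = 5). Every Ag+Costim library lies above every Ag library for Hnrnpl, whereas the groups of Ptprc and Hnrnpll overlap.

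The call on the repressors changed when Ag 2 and Ag 5 were left out or weighted low together. Leaving out any 1 library did not change it. The lowest adjusted p in edgeR was then 0.0629 for Hnrnpl and 0.0804 for Hnrnpll, both without Ag 5. The median log2 fold change over all genes tested depended on the scaling, at -0.32 under TMM, -0.48 under DESeq2 size factors, -0.58 under upper quartile factors and -0.64 under total counts. Relative to that median, Hnrnpl was higher by 1.21 to 1.30, Hnrnpll by 0.98 to 1.11 and Ptprc by 0.59 to 0.63 under these 4 scalings in edgeR. Without Ag 2 and Ag 5, all 3 members passed in edgeR, with log2 fold changes of 0.39 for Ptprc (adjusted p 0.0294), 1.22 for Hnrnpl (5.16e-04) and 1.18 for Hnrnpll (0.00122). In that fit 17.9% of all genes tested were called higher, so the calls of the members were shared with many genes. The weighted limma fit gave Ag 2 and Ag 5 weights of 0.0987 and 0.0657, against 0.51 to 1.99 for the other Ag libraries, and called 25.8% of genes higher. There the log2 fold change in limma was 0.215 for Ptprc (adjusted p 0.0484), 1.20 for Hnrnpl (2.89e-05) and 1.16 for Hnrnpll (6.81e-05). Without Ag 1 and Ag 4, edgeR gave 0.35, 0.69 and 0.37 for Ptprc, Hnrnpl and Hnrnpll, and none passed (adjusted p 0.346, 0.0791 and 0.343).

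**Figure D2:**
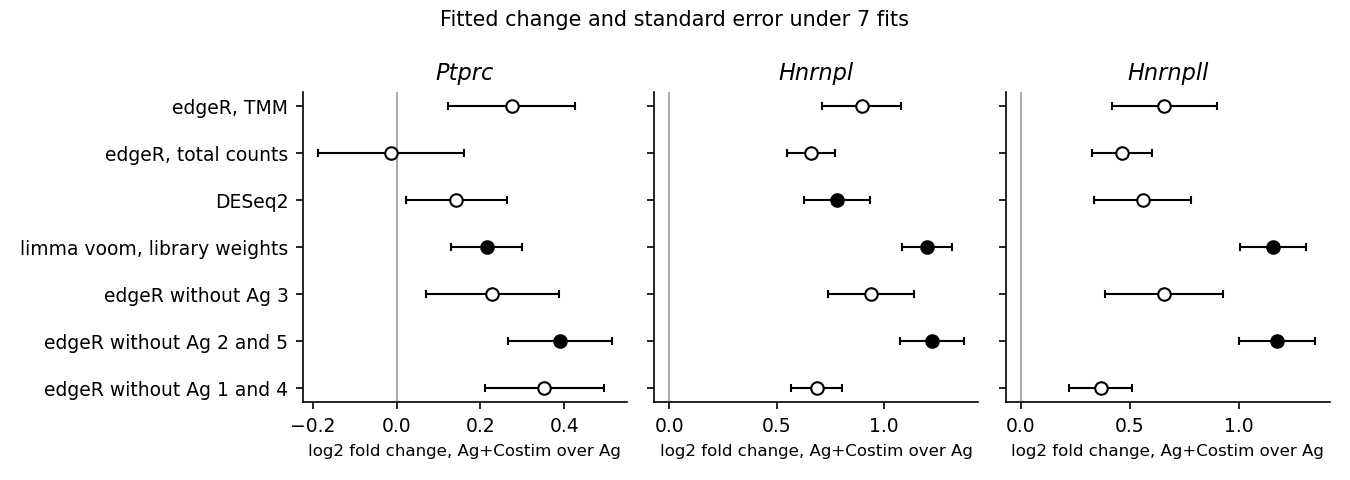
Log2 fold change of the 3 members, Ag+Costim over Ag, with its standard error, under 7 fits. Filled points passed a BH-adjusted p of 0.05 in that fit. Hnrnpl and Hnrnpll stay to the right of 0 in each of the 7 fits, and Ptprc lies at -0.013 with total counts.

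To ask whether the variable exons of CD45 were skipped more often after costimulation, inclusion was computed in each library from transcript counts divided by transcript length, as the share of transcripts that contain an exon among those that contain or span it. Exon 5, the exon that resting mouse T cells keep most, had the highest inclusion of the 3 in every library. Its inclusion was 52.9%, 39.9%, 63.9%, 43.8% and 42.4% in Ag 1 to 5. In Ag+Costim 1 to 5 it was 45.2%, 46.2%, 38.2%, 36.2% and 40.2%. The highest values were those of Ag 3 and Ag 1, and the groups overlapped. The means were 48.6% ± 9.89 and 41.2% ± 4.35 (SD, n = 5 each), a difference of -7.36 percentage points that was within the spread of the Ag libraries (two-sided exact permutation p = 0.183, where the smallest p that 252 assignments allow is 0.0079). Without Ag 3 the Ag mean was 44.7% ± 5.67 (exact permutation p = 0.341, n = 4 against 5), and the difference was -3.53 points. Without Ag 2 and Ag 5 the difference was -12.3 points (adjusted p 0.314 in limma), and without Ag 1 and Ag 4 it was -7.51 (0.691). Across 13479 annotated cassette exons, limma called 0 (0%) at a BH-adjusted p under 0.05, with 979 at an unadjusted p under 0.05, and exon 5 had an adjusted p of 0.715.

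Exons 4 and 6 were mostly skipped in both groups. Inclusion of exon 4 was 12.1%, 8.68%, 41.8%, 14.0% and 9.37% in Ag 1 to 5. It was 12.6%, 10.1%, 7.77%, 10.2% and 8.86% in Ag+Costim 1 to 5. Ag 3 stood far above the other 9 libraries, which spanned 7.77% to 14.0%. With Ag 3, the means were 17.2% ± 13.9 and 9.91% ± 1.81 (SD, n = 5 each; two-sided exact permutation p = 0.230). Without it the Ag mean was 11.04% ± 2.46 (exact permutation p = 0.437, n = 4 against 5), and the difference shrank from -7.28 to -1.13 percentage points. Without Ag 2 and Ag 5 it was instead -12.7 points (adjusted p 0.403 in limma), and without Ag 1 and Ag 4 -10.04 (0.691), with -12.7 and -10.03 for exon 6. Exon 6, at 8.67% to 41.8% in Ag and 7.77% to 12.6% in Ag+Costim, was nearly equal to exon 4 in every library, since almost the same annotated transcripts carry both. Exon 7, which follows at chr1:138116954-138117025, was included at 96.5% ± 1.71 in Ag and 96.9% ± 1.08 with Ag+Costim (SD, n = 5 each; exact permutation p = 0.730).

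The authors' deposited PSI (percent spliced in, computed from the reads with Whippet, 1 value per group and hence no error) placed all 3 variable exons lower in Ag+Costim. Exon 5 was at 39.7% in Ag and 34.1% in Ag+Costim, a difference of -5.60 points. Exon 4 was at 1.898% and 0.964%, exon 6 at 6.92% and 4.73%, and exon 7 at 95.7% and 93.8%. The study's methods set a difference of 5 points together with a probability, which was not used here. Only exon 5 passed that difference. In its direction 0.801% of the 78775 core exons compared in genes averaging at least 10 CPM did so. That share includes exons that are nearly always included, as most core exons of Ptprc are. No share was computed for exons as variable as exon 5, so how rare its difference is cannot be read from it. The PSI of exon 5 lay below the mean inclusion from length-divided transcript counts in both groups, and above the 30.3% and 20.8% that the counts gave without division by length. The PSI of exon 4 lay below that of exon 6, a difference between the exons that the transcript counts cannot show. Both lay well below the mean inclusion from length-divided transcript counts. That inclusion was 17.19% in Ag and 9.91% in Ag+Costim for exon 4, and 17.15% and 9.90% for exon 6. The counts therefore do not give the amount of the form with all 3 exons to that precision.

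**Figure D3:**
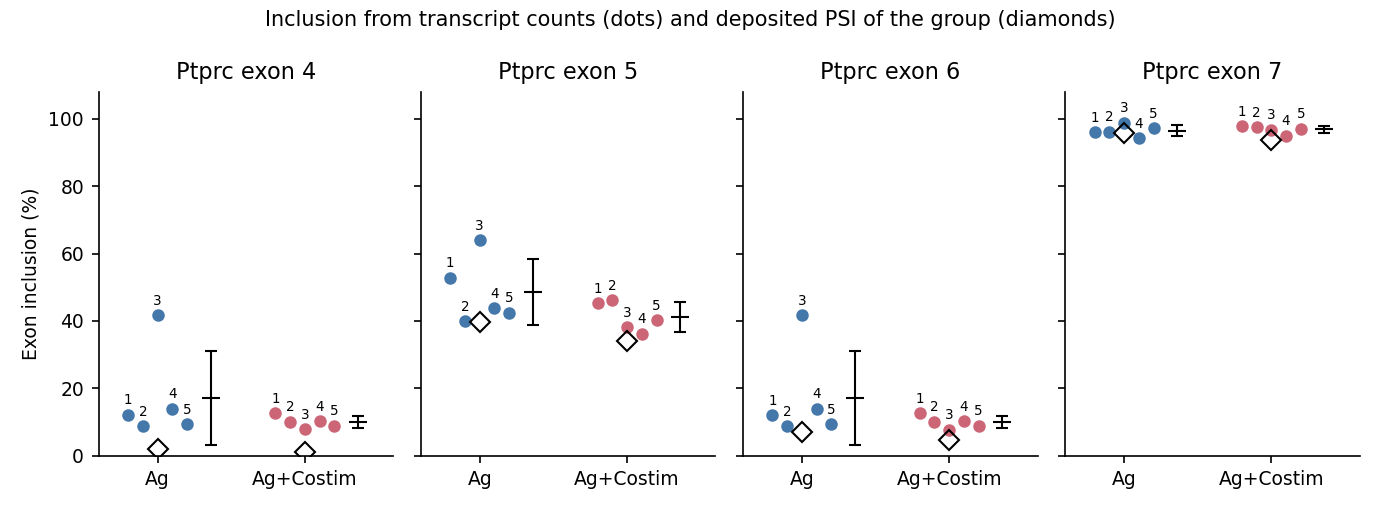
Inclusion of Ptprc exons 4, 5, 6 and 7 in each library from transcript counts (dots with replicate number), the group mean and SD (bars, n = 5) and the authors' PSI of the group (open diamonds, 1 value per group), in percent. Ag 3 stands apart for exons 4 and 6 at 41.8%, and the groups overlap for each of the 4 exons.

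Inclusion from counts rests on few annotated transcripts, which were therefore compared one by one. Ptprc-203, which skips exons 4, 5 and 6 and corresponds to RO, took 32.1%, 46.1%, 31.7%, 36.4% and 50.2% of the counts of Ptprc in Ag 1 to 5. In Ag+Costim 1 to 5 it took 44.1%, 43.4%, 51.3%, 45.9% and 47.1%. Ag 1, Ag 3 and Ag 4 lay below every Ag+Costim library, and Ag 2 and Ag 5 lay among them. Ptprc-207, which carries all 3 exons, took 40.9% in Ag 3, 7.65% to 10.8% in the other Ag libraries and 7.34% to 11.4% in Ag+Costim. In TPM it stood at 178.2 in Ag 3, 26.5 to 69.2 in the other Ag libraries and 38.1 to 59.6 in Ag+Costim. The long transcript was thus higher in Ag 3 in amount as well as in share. Exon 5 without exons 4 and 6 was annotated only in Ptprc-213, a fragment of 702 bases that took 3.81% ± 0.71 and 3.90% ± 0.55 of the counts (SD, n = 5 each). Divided by its short length, Ptprc-213 stood at 93.8 to 194.8 TPM in Ag and 98.4 to 168.7 TPM in Ag+Costim, above Ptprc-207 in every library but Ag 3, so the inclusion of exon 5 given above rests largely on this fragment. Without division by length, the difference of exon 5 was -9.52 points (adjusted p 0.727 in limma). Ptprc-201, a retained-intron form that starts past exon 7 and does not bear on the variable exons, took 31.9% ± 7.68 and 33.4% ± 1.81 (SD, n = 5 each).

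**Figure D4:**
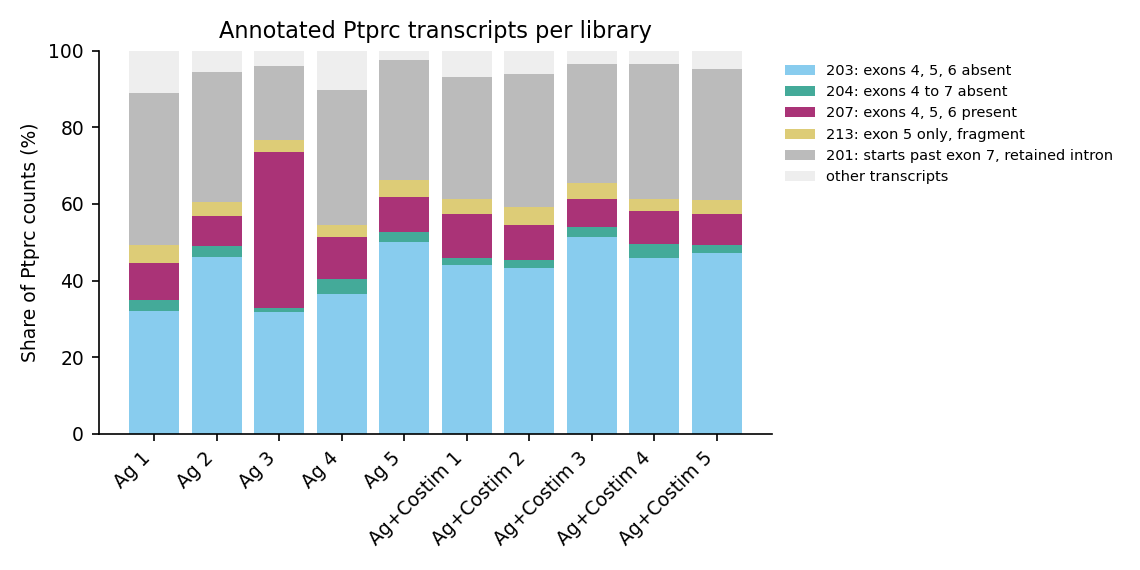
Share of the counts of Ptprc on each annotated transcript, in percent, as stacked bars for the 10 libraries. Ptprc-203, without exons 4 to 6, takes 31.7% to 51.3%, and Ptprc-207, with all of them, takes 40.9% in Ag 3 and 7.34% to 11.4% elsewhere.

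Transcript usage, the division of a gene's counts among its transcripts, was tested in 10441 genes. A gene was called at an edgeR diffSpliceDGE FDR under 0.05 with a mean share that moved by over 10 percentage points, which 55 genes (0.527%) met. None of the 3 members did, with FDRs of 0.344 for Ptprc, 0.435 for Hnrnpl and 0.690 for Hnrnpll. The transcript that moved most was Ptprc-203 for Ptprc, higher by 7.04 points in Ag+Costim. Without Ag 2 and Ag 5, the Ag libraries in which Ptprc-203 took the largest shares, Ptprc was called (FDR 0.00115 in edgeR, Ptprc-203 higher by 12.9 points). Hnrnpll was called there as well (FDR 0.00544, Hnrnpll-205 higher by 13.5 points), as were 13.4% of the genes tested. Without Ag 1 and Ag 4 the largest move in Ptprc was that of Ptprc-207, -10.4 points, with an FDR of 0.983 in edgeR.

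The repressors carry decay exons of their own, and these were read in the same way. In Hnrnpl, the exon at chr7:28817335-28817404 (70 bases) is found in Hnrnpl-213, which the annotation types as a target of nonsense-mediated decay. Its inclusion was 10.2%, 4.28%, 3.01%, 11.1% and 4.16% in Ag 1 to 5. In Ag+Costim 1 to 5 it was 7.06%, 7.05%, 9.04%, 6.55% and 22.5%. Ag+Costim 5 stood above the rest, and the groups overlapped (exact permutation p = 0.333, n = 5 each). Without Ag+Costim 5 the difference fell from 3.897 to 0.879 points. Per length, Hnrnpl-213 stood at 4.31 to 13.1 TPM in Ag and 15.3 to 59.2 TPM in Ag+Costim, without overlap, a separation in that direction that 2.71% of the 60078 transcripts with at least 10 counts in 5 libraries shared. Its share of the counts of Hnrnpl was 4.07% ± 2.20 in Ag and 8.51% ± 6.08 with Ag+Costim (SD, n = 5 each; FDR of the transcript 0.365 in edgeR's diffSpliceDGE), where Ag+Costim 5 held 19.26% and the others 5.18% to 7.38%. limma's diffSplice gave Hnrnpl an FDR of 0.00204, but the share of Hnrnpl-213 moved by 4.44 points, below the 10 that a call required. The coding transcripts Hnrnpl-209 (51.4% against 53.7%) and Hnrnpl-201 (36.0% against 31.6%) took most of the counts in both groups, and in TPM Hnrnpl-209 stood at 79.99 ± 18.1 and 141.7 ± 24.3, without overlap (SD, n = 5 each).

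In Hnrnpll, the decay exon at chr17:80044940-80045022 (83 bases) was included at 27.8% ± 7.50 in Ag and 24.1% ± 5.78 with Ag+Costim (SD, n = 5 each; exact permutation p = 0.421). It took a larger part of the transcripts than the decay exon of Hnrnpl did in every library but Ag+Costim 5. The decay transcript Hnrnpll-203 held 24.8% and 21.9% of the counts, the coding transcript Hnrnpll-205 57.6% and 65.5%, and Hnrnpll-201, another coding form, 11.1% and 9.79%. In TPM, Hnrnpll-205 stood at 13.4, 29.7, 30.3, 23.3 and 34.8 in Ag 1 to 5. In Ag+Costim 1 to 5 it stood at 34.3, 37.0, 45.2, 53.4 and 48.4. Ag 5 alone among the Ag libraries reached the level of the Ag+Costim libraries. The coding exon at chr17:80053523-80053641 (119 bases), which the retained-intron form Hnrnpll-204 spans, was included at 97.6% ± 1.88 in Ag and 99.6% ± 0.34 with Ag+Costim (SD, n = 5 each; exact permutation p = 0.0714). Without Ag 2 and Ag 5 it was higher by 3.16 points in Ag+Costim and passed in limma (adjusted p 0.0301), as did 0.368% of the exons tested in that direction.

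Other events of the members in the authors' PSI table concerned transcript ends. Of the 67 events of the 3 genes, 7 differed by more than 5 points, 3 of 37 in Ptprc, 4 of 15 in Hnrnpl and 0 of 15 in Hnrnpll, where 6.7% of all 99019 events did. Of the 7, 6 were starts or ends, the kinds outside the core exons, of which 25.4% of 20244 events differed by that much, against 1.88% of the core exons. In Ptprc, the longer stretch of the last exon at chr1:138063420-138064778 (1359 bases) went from 74.2% (Ag) to 85.8% (Ag+Costim), and the 7 bases beyond it from 25.7% to 14.2%. In Hnrnpl, the first 267 bases of the gene stood at 4.81% and 9.83%, and the 52 bases after them at 95.4% and 90.4%. At the other end of Hnrnpl, a stretch of 402 bases stood at 58.6% and 67.7%, and the last 17 bases at 41.4% and 32.3%. The 3′ end pairs thus describe ends 7 and 17 bases apart. The table listed the 31 core exons of Ptprc, but the decay exons of Hnrnpl and Hnrnpll were not among the 11 listed for each.

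To ask whether exon inclusion followed the repressor from library to library, the inclusion of exons 4, 5 and 6 was set against the level of Hnrnpll (log2 CPM), which made 3 relations over 10 libraries. Exon 5 was lower where Hnrnpll was higher, with Pearson's r of -0.589 (permutation p = 0.0742, BH-adjusted over the 3 relations 0.223) and Spearman's rho of -0.685 (permutation p = 0.0343). Leaving out Ag 1 and Ag 4, the libraries farthest from the median of Hnrnpll, gave r = -0.866 (permutation p = 0.0181, adjusted 0.0543), and leaving out Ag 3 gave -0.768 (permutation p = 0.0179, adjusted 0.0537). Within the groups, as deviations from the group means, r was -0.408 (permutation p = 0.445), and the relation was not detectable there. With Hnrnpll scaled by total counts r was -0.480 (permutation p = 0.158, adjusted 0.474). In that scaling the groups of Hnrnpll did not overlap, so its r cannot be told apart from the difference between the groups. For exon 4 the values over 10 libraries were r = -0.308 (permutation p = 0.319, adjusted 0.322) and rho = -0.552 (permutation p = 0.105), and exon 6 gave nearly the same numbers (r = -0.306, permutation p = 0.322). Without Ag 1 and Ag 4 exon 4 had r = -0.828 (permutation p = 0.0535), with rho at -0.310, whereas with total counts r was -0.157 (permutation p = 0.622) and within the groups -0.0603 (permutation p = 0.937). None of these relations passed after adjustment. For Hnrnpl the libraries fell into separate clusters that were the groups themselves, so no r is given.

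**Figure D5:**
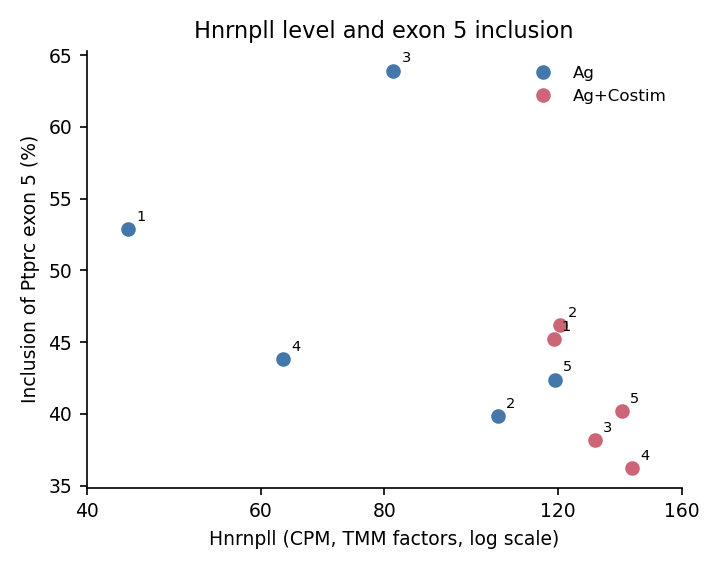
Inclusion of Ptprc exon 5 (percent) against the level of Hnrnpll (CPM with TMM factors, log axis), 1 point per library with its replicate number. The 4 libraries with the lowest inclusion (36.2% to 40.2%), Ag 2 and Ag+Costim 3, 4 and 5, hold 104.2 to 142.4 CPM of Hnrnpll, and Ag 3 lies apart at 63.9%.

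Further regulators of the CD45 exons were read as a list of 14 genes, written with earlier results of these data known. Of these, 6 were higher in Ag+Costim at an unadjusted p under 0.05 and 0 lower, against 7.89% and 10.7% of all genes tested. In edgeR 0 were called, and DESeq2 called 4 higher, as it did 2.56% of the genes it tested. Their median log2 fold change was 0.57 against -0.32 over all genes tested, a median that was -2.14 in edgeR with no filter on counts. Thrap3 (TRAP150), a partner that keeps the repressor PSF off CD45 RNA in resting cells, averaged 140.4 ± 10.6 CPM in Ag and 255.5 ± 9.36 CPM under Ag+Costim (SD, n = 5 each). Its groups did not overlap, as in 4.47% of all genes in the higher direction. Thrap3 had a log2 fold change of 0.86, an adjusted p of 0.116 in edgeR and 5.22e-23 in DESeq2. Its spread within Ag was narrow, 128.5 to 149.7 CPM, unlike that of Hnrnpll. Srsf1, a splicing activator, stood at 123.3 to 270.7 CPM in Ag and 316.8 to 405.5 CPM in Ag+Costim, again without overlap. Hnrnpd, another hnRNP gene, stood at 19.9 to 55.9 and 54.1 to 81.4 CPM, and Sfpq, the gene of PSF, at 66.5 to 104.0 and 86.5 to 130.9 CPM, both with overlapping groups.

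Among genes of the proteins that work with CD45 at the membrane, none passed in edgeR or DESeq2, where edgeR called no gene at all. Of 17 signalling partners, 0 had an unadjusted p under 0.05 in edgeR in either direction, against 7.89% of all genes higher and 10.7% lower. DESeq2 called 0 of them, while it called 2.56% of the genes it tested higher and 19.7% lower. Their median log2 fold change was 0.15, against -0.32 over all genes tested. The lowest p belonged to Cd3g and Cd3d, chains of the T cell receptor complex (log2 fold change -0.41 and -0.34), and to Jak3 and Zap70, kinases downstream of cytokine and antigen receptors (0.32 and 0.28), with adjusted p of 0.297 to 0.327 in edgeR. Lck, the kinase that CD45 dephosphorylates, had a level of 1609 ± 333.9 (Ag) and 1800 ± 40.8 CPM (Ag+Costim) (SD, n = 5 each), with overlapping groups. Of 11 activation state genes, 1 was higher and 2 were lower at an unadjusted p under 0.05 in edgeR, beside the same 7.89% and 10.7% of all genes. The higher one was the proliferation gene Mki67, at 93.2 to 401.5 CPM in Ag and 414.8 to 468.2 CPM in Ag+Costim (log2 fold change 1.10, and 0.66 without Ag 1 and Ag 4). Ccr7, a chemokine receptor that guides resting T cells to lymph nodes, was among the lower ones with a log2 fold change of -0.61, which was -0.22 without Ag 1 and Ag 4. Il7r, the receptor for interleukin 7, did not pass at that p (unadjusted p 0.0676 in edgeR) and had -0.58, with -0.30 without Ag 4 and -0.048 without Ag 1 and Ag 4.

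Markers of other cells were read beside the long CD45 form, which B cells express. Of 12 B cell markers, 8 were lower in Ag+Costim at an unadjusted p under 0.05, where 10.7% of all genes were, with a median log2 fold change of -2.65 against -0.32 over all genes. DESeq2 called 8 of them lower, and 19.7% of all genes it tested. Cd79a, a chain of the B cell receptor, stood at 23.1, 2.44, 93.2, 32.5 and 1.30 CPM in Ag 1 to 5 and at 1.72 to 5.56 CPM in Ag+Costim. Ag 3, the library with the most Cd79a, was also the one with the most Ptprc-207, and Ag 2 and Ag 5, with the least Cd79a, held 1 and 3 of the 12 markers at 0, Pax5 in both. Summed over the 12 markers the level was 663.3 to 1302 CPM in Ag and 533.8 to 792.4 CPM in Ag+Costim, most of it Ighm. Ag 3 also held 1103 CPM of 7 erythroid markers. The other Ag libraries held 14.7 to 125.6 CPM of them, and Ag+Costim 3.98 to 40.3 CPM. Of these 7, 4 were lower in Ag+Costim at an unadjusted p under 0.05 (5 called lower in DESeq2), against the 10.7% and 19.7% of all genes given above. Of 12 myeloid markers, 2 were higher and 0 lower at that p, against 7.89% and 10.7% of all genes tested. Summed, they stood at 68.0 to 174.7 CPM in Ag and 98.4 to 220.0 CPM in Ag+Costim. Summed CD4 T cell markers (4 genes, 0 in either direction) stood at 3.73 to 26.3 and 3.15 to 8.18 CPM. The 8 CD8 T cell markers were detected in every library, at 5594 CPM in Ag 3, 9776 to 12070 in the other Ag libraries and 7390 to 9206 in Ag+Costim. The part of these other cells in the exon values of Ag 3 was not tested.

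By likeness of log2 CPM over the 10 libraries, among 8616 genes averaging at least 10 CPM, the genes closest to Ptprc were Ppp2r5b (Pearson's r 0.970), Tpr (0.954) and Vapb (0.942), and 37 genes exceeded 0.9. Those closest to Hnrnpl were Abcb1b (0.993), Eif4g1 (0.993) and Ddx19a (0.992), with 884 genes above 0.9. Those closest to Hnrnpll were Ttll12 (0.995), Nars (0.995) and Wars (0.994), with 2207 genes above 0.9. Each r is a description over libraries that share their depth and scaling. The pattern of Hnrnpll was thus one that many genes had, whereas that of Ptprc was shared by few.

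The counts do not use strand, so that overlapping genes limit them. A130071D04Rik lies on the same strand within Ptprc and stood at 10.6 to 44.5 CPM in Ag and 9.72 to 23.9 CPM in Ag+Costim, small beside Ptprc. The antisense gene Gm44702 over Hnrnpl, and Gm22215 and AC122253.3 over Hnrnpll, stood at no more than 0.503 CPM in any library.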

How the data were processed

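Poly(A) RNA was converted with SMART-Seq v4 and Nextera XT, which do not mark strand, and sequenced as paired reads. The authors aligned reads with HISAT2 2.1.0 to mm10, sorted the alignments (SAMtools 1.9) and quantified genes and transcripts with StringTie 2.1.0, according to their methods and the submitters' processing notes. StringTie takes them from coverage, and the authors deposited them as estimated counts, whole numbers with no normalisation, so their totals are not reads and give no counting error. The authors also ran Whippet, and their deposited PSI is a fraction between 0 and 1, with 1 value per event and group and the libraries already combined. The columns of that table that compare the groups (a PSI difference and a probability) were not used. Of the deposited gene entries, 26248 carried only a number and 183 were outside the 55450 annotated genes used. They were left out (0.0583% to 0.342% of a library's counts). Gene counts equalled the sums of transcript counts.

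Groups came from the sample labels. Genes were tested with edgeR 4.0.16 (quasi-likelihood, filterByExpr, TMM, robust) in R 4.3.3 over all 24225 genes that passed the filter, with Benjamini-Hochberg (BH) adjustment and a threshold of 0.05. All 3 members passed the filter. DESeq2 1.42.0 and limma 3.58.1 were alternatives. Transcript usage (diffSpliceDGE) took transcripts with at least 10 counts in 5 libraries. Exon inclusion was taken per library from length-scaled transcript counts for cassette exons with at least 100 counts in every library, and fitted with limma on fractions. Single values were compared with two-sided exact permutation tests, and relations with 100000 permutations. Each test across many features was checked on counts simulated with a single spread for all genes and the same profile in every library of a group. The check therefore does not cover the differences among the Ag libraries. The members, the gene lists and the tests were chosen with earlier results of these data known. Named genes are the members, up to 4 genes per list with the lowest edgeR p, the 3 genes most like each member and transcripts with a mean share of at least 5% in a group. Lck, Gzmb, Ighm, Pax5 and the genes that overlap the members fall outside that rule and were named after their values were seen. Replicate numbers did not pair the libraries. The values of 1 listed gene are not reported here.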

Additional observations from a re-analysis of the deposited data

Results flagged for a closer look

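Each group of 5 libraries was searched for a library far from the others, by Dixon's criterion (the gap to the nearest library over the range of the group, above 0.71). Of 62 groups examined, 9 met it, and 4 of the 9 concerned Ag 3. Chance gives about 1 in 20 for a single group. Several groups measure the same quantity, such as a gene in CPM and in TPM, so 9 of 62 cannot be set directly against that rate.

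Ag 3 held 40.91% of the counts of Ptprc on Ptprc-207, the transcript with exons 4, 5 and 6, against 7.65% to 10.8% in the other Ag libraries. Its inclusion was 41.78% for exon 4, where the other Ag libraries lay between 8.68% and 14.0%, and 41.77% for exon 6, where they lay between 8.67% and 13.9%. These 3 values are the same transcript seen 3 ways. The same library held 1103 CPM of erythroid markers, against 14.7 to 125.6 CPM in the others of its group.

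Ag+Costim 4 had the lowest Ptprc and the highest Hnrnpl of its group. Ptprc stood there at 1518 CPM (1682 to 1729 in the others) and 567.3 TPM (684.8 to 703.8), and Hnrnpl at 435.2 CPM (343.4 to 368.9). Ag+Costim 5 held 19.26% of the counts of Hnrnpl on the decay transcript Hnrnpl-213 (5.18% to 7.38% in the others), and its decay exon was included at 22.51% (6.55% to 9.04%).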

How the results depend on the processing

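Among the values that answer a comparison, 178 of those recomputed were kept, in direction and side of the threshold or, for counts, within 1.5 times. Of the rest, 26 counts moved by over 1.5 times, 9 values passed where they had not, and 1 turned its sign. For transcript usage only the call was compared, not the direction or the FDR alone. Hnrnpl thus counts as kept at an FDR of 0.00204 in limma's diffSplice and, without Ag 2 and Ag 5, of 0.0229 in edgeR. Ptprc turned with total counts (-0.013). Ptprc passed with the weighted limma fit (0.215) and without Ag 2 and Ag 5 (0.39), Hnrnpl in DESeq2 (0.78), in the weighted fit (1.20) and without Ag 2 and Ag 5 (1.22), and Hnrnpll in the weighted fit (1.16) and without Ag 2 and Ag 5 (1.18). Genes called numbered 0 in edgeR, 8011 in DESeq2, 12639 in the weighted fit and 16280 without Ag 2 and Ag 5. For transcript usage, leaving out Ag 2 and Ag 5 gave FDRs of 0.00115 for Ptprc and 0.00544 for Hnrnpll. Genes called for usage numbered 144 with limma, 1365 without Ag 2 and Ag 5, 255 without Ag 1 and Ag 4, and 10 (without Ag+Costim 2) to 357 (without Ag 5) with 1 library left out. Exons called numbered 10 with protein-coding transcripts only, 8 on a logit scale, 162 without Ag 2 and Ag 5, 17 without Ag 1 and Ag 4, and 0 to 45 (without Ag 5) with 1 library left out. With a PSI difference over 10 points, 2 events of the members passed. Exon 7 ranged from -0.246 (without Ag 4) to 0.912 points (without Ag 3) with 1 library left out and was at -0.590 without Ag 1 and Ag 4, and the decay exon of Hnrnpll was at 1.42 there. For each of these the cause was not tested. Without Ag 2 and Ag 5 the differences of exons 4, 5 and 6 were -12.7, -12.3 and -12.7 points, over 1.5 times those with all libraries. The omissions of Ag 1 and Ag 4 (other than in the relation with Hnrnpll), of Ag 3 in the relation and of Ag 2 and Ag 5 in usage were chosen after the data were seen.

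With the replicate number as a block, edgeR called 0 genes (2414 at an unadjusted p under 0.05) and 56 genes for usage, limma called 0 exons, and the log2 fold changes were 0.28 for Ptprc, 0.92 for Hnrnpl and 0.74 for Hnrnpll, so that the block changed no call on the members. Same-numbered libraries correlated in their deviations at -0.303 to 0.245, and none matched its own number best, so the numbers share only a name.

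The main limit is the spread among the Ag libraries, in which the level of some activation genes differed. Exon values rest on annotated transcripts, of which only a short fragment carries exon 5 without exons 4 and 6, and the PSI values have no error. Relations with Hnrnpl were planned and were not run, because its libraries form the groups themselves.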
